A study of Mus musculus with 62 samples.

Results

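The genes described here are 9 genes that mark resting, homeostatic microglia: P2ry12, P2ry13, Tmem119, Cx3cr1, Sall1, Siglech, Gpr34, Csf1r and Fcrls. They were taken by name from the 53975 gene identifiers of the long-RNA tables. All 9 passed the filter on low values, as members of the 17840 genes tested. Long RNA depleted of ribosomal RNA was sequenced from the hippocampus of both hemispheres, pooled for each mouse, in 17 of the 62 libraries of the series. APP mice carried App NL-G-F, a humanised App allele with familial Alzheimer's disease mutations that is expressed from the mouse App locus, and WT mice were C57BL/6J. Each APP age group (3, 6 and 12 months) had 3 mice. WT had 2 mice aged 3 months, with a further 3 aged 6 months and 3 aged 12 months. Per the study's design text these ages stand for very low plaque load, the appearance of plaques, and the last stage of the pathology. Mice received no treatment that the labels name.

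Microglia are the resident macrophages of the brain. They depend on the receptor Csf1r, which binds Csf1 and Il34, and on TGF-beta signalling and the transcription factor Sall1 for their survival and identity. In the resting state they express purinergic and chemokine receptors with which they sense adenine nucleotides and neuronal Cx3cl1, and around amyloid plaques they are known to turn on another programme that includes Cst7, Tyrobp and Clec7a while homeostatic genes fall. In bulk tissue, a change in the number of microglia and a change in RNA per microglial cell cannot be told apart.

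Levels are TPM (a length-corrected unit that sums to the same total in each library) divided by a factor for each library, so that the typical gene has the same level in all libraries, and are called scaled TPM. Factors ran from 0.688 to 1.46. Deposited Coverage over FPKM, which is proportional to the depth of a library, ran from 1.42 to 3.04. Differences are on the log2(scaled TPM + 1) scale, which understates the change of low genes, and a gene was called at a Benjamini-Hochberg adjusted p below 0.05 from limma over 17840 genes. The labels do not give sex, and Xist, expressed from the inactive X chromosome of females, was at 70.6 to 137 scaled TPM in all APP libraries and both WT libraries of 3 months and at 0.265 to 0.524 in WT at 6 and 12 months. Y-linked Ddx3y was at 18.8 to 28.2 in those WT libraries and at 0.0797 or less elsewhere. Genotype and sex therefore cannot be told apart at 6 and at 12 months. APP mice of different ages, WT at 12 against 6 months, and APP against WT at 3 months do not have this limit. Replicate 2 of APP at 6 months stood apart in microglial genes: summed over 18 genes expressed by microglia in any state, its level was 371 scaled TPM, where the lowest library of its group had 153.

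The members fall into 4 roles. P2ry12 and P2ry13 are receptors for ADP, and Gpr34 is a receptor for lysophosphatidylserine. Csf1r and Cx3cr1 receive cytokine and chemokine signals. Fcrls, Siglech and Tmem119 are other surface proteins, Fcrls being related to Fc receptors and Siglech a sialic acid-binding lectin, and Sall1 is a nuclear zinc finger transcription factor.

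The RefSeq promoter table (GRCm38.p6) held 6 of the 9 members. The 250 bases before the start of 3 of them are shown because Fcrls had the largest difference between APP and WT at 12 months of the 9 genes, and because P2ry13 and P2ry12 are neighbouring receptor genes on the same strand. Capitals mark GAGGAA, a core of the site bound by PU.1, the factor encoded by Spi1, searched on both strands.
Fcrls, chr3:87263525-87263774, minus strand: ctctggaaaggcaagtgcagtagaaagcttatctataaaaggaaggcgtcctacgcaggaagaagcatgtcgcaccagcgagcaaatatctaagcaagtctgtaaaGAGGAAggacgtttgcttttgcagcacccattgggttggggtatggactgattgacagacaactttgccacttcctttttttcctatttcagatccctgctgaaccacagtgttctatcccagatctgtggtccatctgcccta
P2ry13, chr3:59210883-59211132, minus strand: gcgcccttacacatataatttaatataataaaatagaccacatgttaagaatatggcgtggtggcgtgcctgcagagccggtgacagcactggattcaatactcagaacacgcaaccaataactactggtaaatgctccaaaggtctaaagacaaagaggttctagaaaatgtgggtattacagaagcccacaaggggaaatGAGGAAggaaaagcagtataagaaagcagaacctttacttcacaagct
P2ry12, chr3:59262986-59263235, minus strand: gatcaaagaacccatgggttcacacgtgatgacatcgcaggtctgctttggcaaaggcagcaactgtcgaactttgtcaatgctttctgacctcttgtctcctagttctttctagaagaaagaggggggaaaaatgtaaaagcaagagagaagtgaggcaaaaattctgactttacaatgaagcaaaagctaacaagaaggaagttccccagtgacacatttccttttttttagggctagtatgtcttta
GAGGAA began 144 bases before the start in Fcrls and 48 bases before it in P2ry13, and was in neither strand of the P2ry12 window. The RefSeq start used here is the first base of the files' gene model for P2ry13, lies 114 bases upstream of it for P2ry12 and 214 bases downstream of it for Fcrls, so that the Fcrls match falls inside the model its level was read from. The 6 members had 8 windows, and GAGGAA was found in 2 of these, near the 23.4% of all 32536 promoter windows of the same length. The longer GAGGAAGT was in 0 of the 8 windows and in 2.45% of all windows. A match is a description of letters and says nothing of binding.

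Csf1r and P2ry12 were the most abundant members in WT hippocampus at each age, and Siglech, Sall1 and P2ry13 the least. In WT mice of 12 months, P2ry12 was at 19.6 ± 2.7 (SD, n = 3) and Csf1r at 18.5 ± 2.1 scaled TPM, 2 levels that overlapped. Cx3cr1 followed at 14.2 ± 1.9, below both by more than the SD, and Gpr34 at 9.09 ± 1.3. Tmem119 (7.64 ± 1.1), Fcrls (6.48 ± 0.42), P2ry13 (5.93 ± 0.96), Sall1 (5.55 ± 0.52) and Siglech (4.34 ± 1.1) each lay within 1 SD or a little more of the next. In APP mice of 12 months the order was different: Csf1r came first at 35.9 ± 2.4 and was followed by Fcrls at 23.9 ± 3.8, P2ry12 at 20.0 ± 2.2 and Gpr34 at 18.7 ± 1.9. Fcrls thus had rank 6 of 9 in WT and rank 2 in APP, while Siglech had the lowest mean in both.

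**Figure D1:**
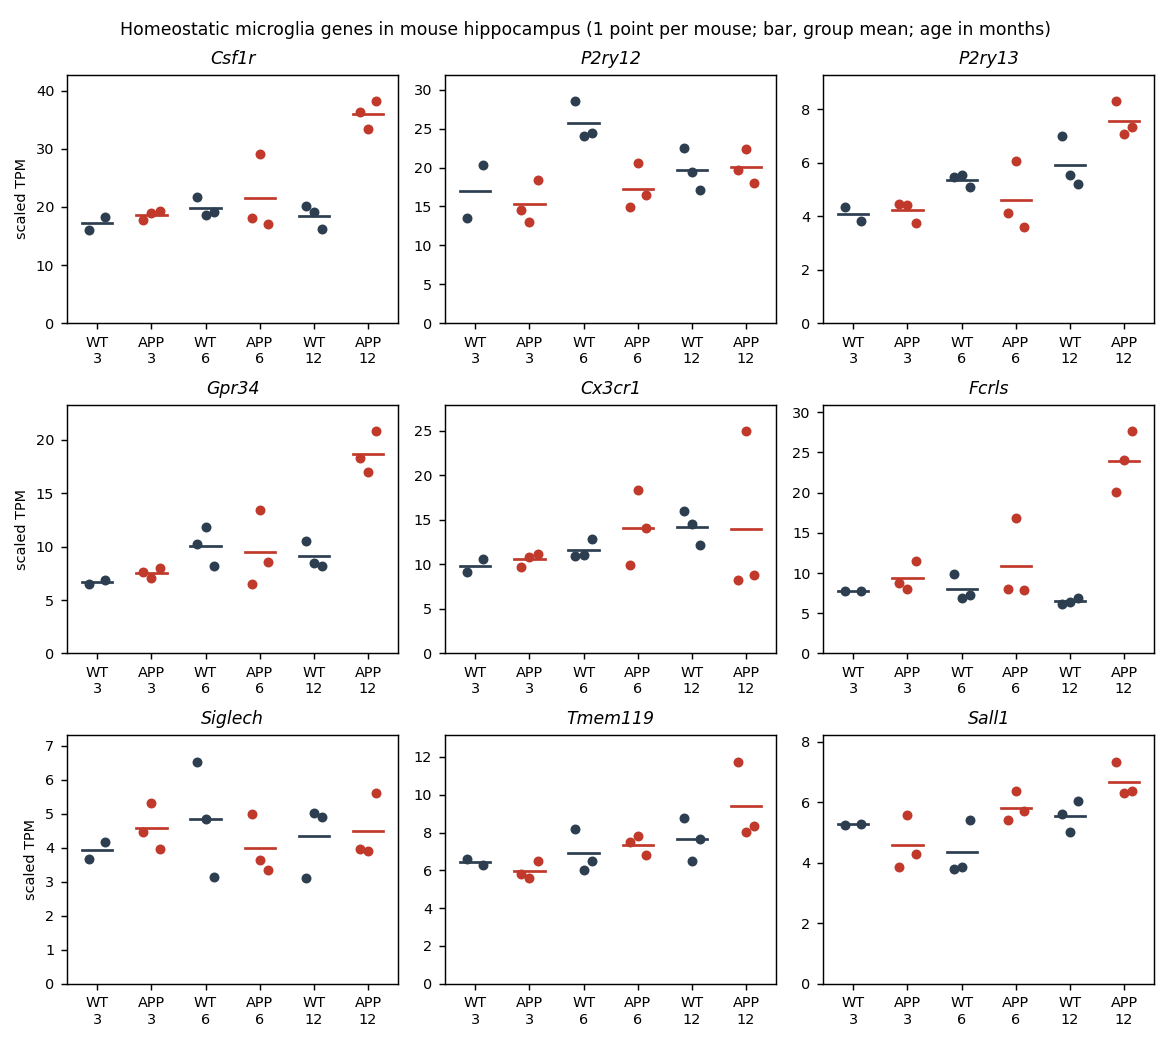
Scaled TPM (y axis, linear, from 0) of the 9 genes in each group (x axis, genotype above age in months); points are mice and bars group means, WT dark and APP red. Csf1r, Gpr34 and Fcrls are set apart from every other group in APP at 12 months, whereas P2ry12 is at 20.0 in APP and 19.6 in WT at that age.

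At 12 months, 3 of the 9 genes were higher in APP than in WT hippocampus and none was lower. These were Fcrls, Csf1r and Gpr34. In the same comparison 0.42% of all genes tested were called higher. The median log2 difference over the 9 members was 0.26, and that over all genes was -0.0046.

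Fcrls was at 20.1, 24.1 and 27.6 scaled TPM in the APP mice of 12 months and at 6.09, 6.43 and 6.92 in WT. The groups were far apart, and APP means were 3.69 times the WT mean. The log2 difference was 1.73 (SE 0.23, limma adjusted p = 0.00271). It was called under each of the 9 other settings and when any 1 of the 17 libraries was left out, with adjusted p up to 0.0246.

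Csf1r, on which microglial survival depends, was at 36.3, 33.4 and 38.2 scaled TPM in APP and at 20.2, 19.1 and 16.2 in WT. The lowest APP mouse exceeded the highest WT mouse by a wide margin, and the ratio of the means was 1.94. The log2 difference was 0.93 (SE 0.16, limma adjusted p = 0.0145). Among the 12-month libraries, leaving out APP replicate 1, APP replicate 3, WT replicate 2 or WT replicate 3 ended the call, with adjusted p up to 0.0872 and log2 differences of 0.84 to 0.99 over the libraries left out in turn.

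Gpr34 was at 18.3, 16.96 and 20.8 scaled TPM in APP and at 10.6, 8.47 and 8.23 in WT, again without overlap. Its means differed 2.06-fold, with a log2 difference of 0.97 (SE 0.19, limma adjusted p = 0.039). This call was close to the threshold: it was lost without any 1 of the 6 libraries of 12 months, and without replicates 2 or 3 of APP at 3 months, replicate 3 of APP at 6 months, either WT library of 3 months or replicate 1 of WT at 6 months, with adjusted p up to 0.182. It was also lost with a pseudocount of 0.1, without the filter on low values and with the replicate number as a block, with adjusted p up to 0.0662. Gpr34 is X-linked, and the WT libraries at this age had the Y-linked transcripts given above.

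The other 6 genes were not called at 12 months, in either direction. P2ry12 was at 19.7, 22.4 and 18.03 scaled TPM in APP and 22.5, 19.4 and 17.1 in WT. The values were interleaved, and the log2 difference was 0.03, with a 95% interval from -0.33 to 0.39. Siglech was also interleaved, with a log2 difference of 0.05 and a 95% interval from -0.43 to 0.52.

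P2ry13 was at 8.30, 7.08 and 7.35 scaled TPM in APP and 7.02, 5.55 and 5.21 in WT. The APP mice all lay above the WT mice, but by little, and the log2 difference of 0.31 was not called (limma adjusted p = 0.751). Sall1 showed the same picture, with 7.35, 6.30 and 6.36 in APP and 5.61, 5.00 and 6.04 in WT (log2 difference 0.23, limma adjusted p = 0.858). Tmem119 overlapped between 8.05 to 11.8 in APP and 6.50 to 8.75 in WT (log2 difference 0.26, limma adjusted p = 0.83).

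Cx3cr1, the receptor for Cx3cl1, was the most variable member in APP at 12 months. It was at 8.21, 24.9 and 8.85 scaled TPM, whereas WT mice were at 15.99, 14.5 and 12.2. In APP, 2 mice were below every WT mouse and replicate 2 was above all of them. The log2 difference was -0.19 (SE 0.30, limma adjusted p = 0.989). Without replicate 2 of APP at 12 months it was -0.67, and without replicate 1 it was 0.08.

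**Figure D2:**
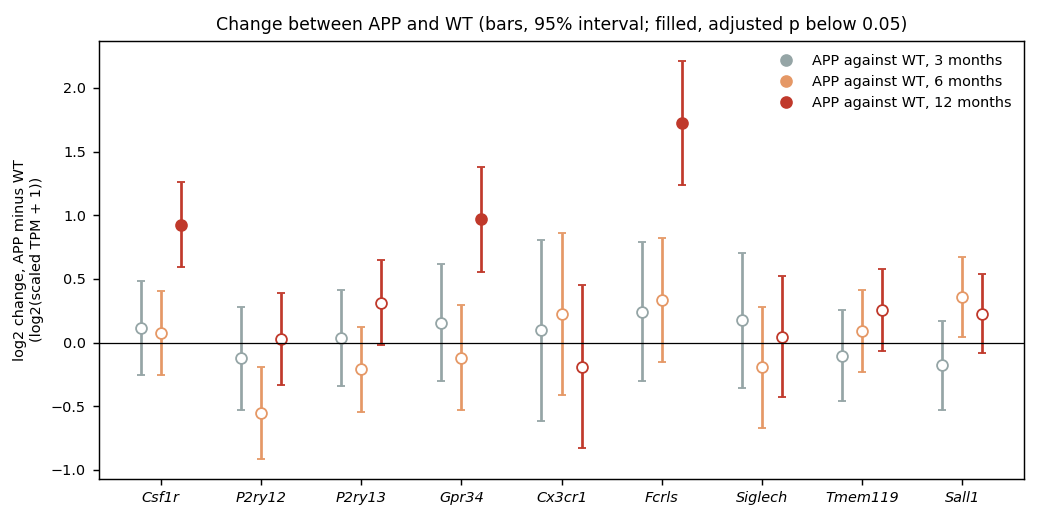
Log2 difference between APP and WT (y axis) for each gene (x axis) at 3, 6 and 12 months; bars are 95% intervals and filled points have an adjusted p below 0.05. The filled points are those of Csf1r (0.93), Gpr34 (0.97) and Fcrls (1.73) at 12 months.

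At 3 months none of the 9 genes was called between APP and WT by limma, none had an unadjusted p below 0.05, and 0.303% of all genes were called. Log2 differences ran from -0.18 for Sall1 to 0.24 for Fcrls. Fcrls was at 8.77, 7.99 and 11.6 scaled TPM in APP and at 7.75 and 7.73 in WT, and Csf1r at 17.7, 18.9 and 19.3 in APP and 16.1 and 18.2 in WT. Gpr34 was at 7.604, 7.06 and 8.02 in APP and at 6.52 and 6.84 in WT. The ratio of the APP mean to the WT mean was 1.22 for Fcrls, 1.13 for Gpr34 and 1.09 for Csf1r. For Fcrls and Gpr34 all APP mice lay above both WT mice, and with 2 WT mice a small difference can be neither shown nor excluded. Markers of hippocampal neurons, summed over 8 genes, were at 103 to 218 scaled TPM in APP and at 297 to 302 in WT at 3 months. The 5 red blood cell markers summed to 149 to 225 in APP and 73.7 to 88.2 in WT. The part of these differences in the microglial values was not tested.

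At 6 months limma called none of the 9 genes, against 1.66% of all genes. The log2 differences furthest from 0 were those of P2ry12 and Sall1. P2ry12 was at 14.9, 20.6 and 16.4 scaled TPM in APP and at 28.5, 24.1 and 24.4 in WT. All APP mice were below all WT mice, with a log2 difference of -0.55 (SE 0.17, limma adjusted p = 0.106). Sall1 was at 5.40, 6.37 and 5.71 in APP and 5.43, 3.79 and 3.87 in WT, with a log2 difference of 0.36 (limma adjusted p = 0.227). Csf1r was at 18.1, 29.1 and 17.1 in APP, where replicate 2 was the high one, and at 21.7, 18.7 and 19.1 in WT. Fcrls (16.8) and Gpr34 (13.4) were likewise highest in that same APP library, whose group mates had Fcrls at 7.96 and 7.91 and Gpr34 at 6.52 and 8.61.

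The 6-month comparison depended on the scaling. In TPM as deposited, the median log2 difference over all genes at 6 months was 0.60, and 57.6% of all genes were called higher in APP. There 6 of the 9 members were called higher, which is near that background, and P2ry12 was at a log2 difference of 0.13. Relative to that shift, the P2ry12 difference was below 0 on both scales.

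Age within APP mice was free of the difference in sex. Between 3 and 12 months, Gpr34, Csf1r, Fcrls and P2ry13 rose, 4 of the 9 members, against 1.92% of all genes called higher. The median log2 change over the 9 was 0.56, against 0.0077 over all genes. Gpr34 went from 7.604, 7.06 and 8.02 scaled TPM at 3 months to 18.3, 16.96 and 20.8 at 12 months (log2 change 1.20, SE 0.19, limma adjusted p = 0.00426). Csf1r went from 18.7 ± 0.84 to 35.9 ± 2.4 (SD, n = 3 mice each, log2 change 0.91, limma adjusted p = 0.00594), and Fcrls from 9.44 ± 1.9 to 23.9 ± 3.8 (log2 change 1.26, limma adjusted p = 0.00882). Gpr34 and Csf1r were called without any 1 of the 17 libraries, and Fcrls without any except replicate 3 of APP at 12 months, where its adjusted p was 0.0539.

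P2ry13 was at 4.48, 4.42 and 3.77 scaled TPM in APP at 3 months and 8.30, 7.08 and 7.35 at 12 months, 1.80 times the earlier mean. The age groups were well apart (log2 change 0.72, SE 0.16, limma adjusted p = 0.0233), but the call was lost without replicate 3 of 3 months or any 1 of the 12-month APP libraries (adjusted p up to 0.102) and in a fit of these 2 groups alone (0.0691). Its neighbour P2ry12 was at 14.5, 12.996 and 18.4 at 3 months and 19.7, 22.4 and 18.03 at 12 months, ranges that overlapped (log2 change 0.38, limma adjusted p = 0.277). Tmem119 missed the threshold narrowly: it was at 5.58 to 6.47 at 3 months and 8.05 to 11.8 at 12 months (log2 change 0.56, limma adjusted p = 0.0542), and on deposited Coverage it was called (adjusted p = 0.0325). Sall1 changed by 0.47 (limma adjusted p = 0.107), Cx3cr1 by 0.21 and Siglech by -0.03 on the log2 scale, none of them called. Between these ages 5 of 8 oligodendrocyte markers were called lower in APP, and 2 of 8 markers of hippocampal neurons were called higher, and their part in the microglial values was not tested.

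For the 4 genes called between 3 and 12 months, the log2 change in APP was 0.08 to 0.25 up to 6 months and 0.64 to 1.14 after it, a difference that was not tested. Among the others, Sall1 was at 0.30 before and 0.17 after 6 months, Tmem119 at 0.27 and 0.30, and Cx3cr1 at 0.35 and -0.15, none of them called. From 3 to 6 months limma called none of the 9 genes and none had an unadjusted p below 0.05, against 2.36% of all genes called, and log2 changes ran from -0.17 for Siglech to 0.35 for Cx3cr1. From 6 to 12 months Fcrls (log2 change 1.14, limma adjusted p = 0.0433), Gpr34 (0.95, 0.0433) and Csf1r (0.75, 0.0458) were called, against 0.516% of all genes called higher. These 3 calls sat at the threshold, and all were lost in TPM as deposited, with quantile normalisation, a pseudocount of 0.1, no filter, the replicate block and a fit of these 2 groups alone. Replicate 2 of APP at 6 months carried much of the spread. Without it the log2 changes were 1.47 for Fcrls, 1.21 for Gpr34 and 0.99 for Csf1r, and P2ry13 (0.82, limma adjusted p = 0.0142) was called as well, and 0.693% of all genes were called higher in that fit. Replicate 2 was the highest library of its group for each of these genes, so leaving it out had to raise their changes. Leaving out other libraries in turn ended each of the 3 calls in most cases: Fcrls was also called without replicate 1 or 3 of APP at 3 months or replicate 1 of WT at 6 months, Gpr34 without replicate 1 of APP at 3 months or replicate 3 of WT at 6 months, and Csf1r in no other case.

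In WT mice the same interval brought no call. Between 6 and 12 months limma called 0.0% of all genes and none of the 9. P2ry12 changed by -0.37, Fcrls by -0.26 and Csf1r by -0.10 on the log2 scale. The difference between the APP and WT changes was tested as an interaction of genotype and age, from which a sex effect that is the same at both ages cancels. Limma called none of the 9 genes there, against 0.0224% of all genes. The largest differences were those of Fcrls (1.39, SE 0.32, limma adjusted p = 0.167), Gpr34 (1.09, SE 0.27, adjusted p = 0.198) and Csf1r (0.85, SE 0.22, adjusted p = 0.204). Without replicate 2 of APP at 6 months these 3 were called, with limma adjusted p of 0.00443, 0.015 and 0.00574, and 0.254% of all genes were called in that fit. That library was singled out for its high microglial genes and was the highest of its group for these 3. Leaving it out therefore had to raise these differences, and the calls without it cannot be read as support for an interaction. Averaged over the 3 ages, 1 of 9 members, Fcrls, was higher in APP (log2 difference 0.77, SE 0.14, limma adjusted p = 0.0369), against 0.118% of all genes called higher. That call held without replicate 3 of APP at 3 months or any 1 APP library of 6 months and was lost without each of the other 13 libraries, with adjusted p up to 0.133.

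Set against other microglial genes, 6 of the 9 members were at a lower level in APP than in WT at 12 months, and Fcrls was at a higher one. For each library, the mean log2 level of 18 pan-microglial genes, such as Aif1, Itgam, Ptprc and Ctss, was subtracted from that of each member. That mean was 2.89 ± 0.026 (SD, n = 3) in WT and 4.09 ± 0.14 in APP at 12 months, and 2.59 ± 0.019 (n = 2) and 2.71 ± 0.078 (n = 3) at 3 months. P2ry12 stood 1.47 ± 0.16 above the pan-microglial mean in WT and 0.30 ± 0.23 above it in APP at 12 months, a difference of -1.17. Cx3cr1 differed by -1.39, Siglech by -1.16, Sall1 by -0.97, Tmem119 by -0.95 and P2ry13 by -0.89. On this ratio the 3 APP mice were below the 3 WT mice for each of these 6 genes. In scaled TPM none of the 6 was called lower. There the APP mean over the WT mean was 0.98 for Cx3cr1 and 1.02 to 1.28 for the others. The mean over the 18 genes itself ran from 2.86 to 2.91 in WT and from 4.00 to 4.25 in APP. A gene with the same level in all these mice would therefore also be without overlap. The share of all genes without overlap on this ratio was not counted. Gpr34 (-0.23) and Csf1r (-0.28) overlapped between the groups. Fcrls was the exception in the other direction, at 0.02 ± 0.11 in WT and 0.54 ± 0.35 in APP. Its WT ratio was higher at the earlier ages, 0.54 ± 0.020 (n = 2) at 3 months and 0.32 ± 0.17 at 6 months. In APP it was 0.66 ± 0.27 and 0.54 ± 0.083 at these ages. The Fcrls ratio thus did not rise with age in APP, and at 12 months the WT ratio was the lowest of the 3 ages. Within APP mice, the same ratio at 12 months minus that at 3 months was -1.41 for Siglech, -1.17 for Cx3cr1, -0.9996 for P2ry12, -0.91 for Sall1, -0.81 for Tmem119, -0.66 for P2ry13 and -0.47 for Csf1r, for which the ages did not overlap. It was -0.18 for Gpr34 and -0.12 for Fcrls, for which they did. At 6 months the P2ry12 ratio was 1.89 ± 0.066 in WT and 1.22 ± 0.42 in APP (n = 3 each), without overlap. The P2ry13 ratio did not overlap at that age either, being -0.17 ± 0.12 and -0.50 ± 0.30. The mean over the 18 genes was 2.84 ± 0.095 in WT at 6 months. In APP it was 2.96 ± 0.62, from 2.52 to 3.67, which makes the APP ratios of that age uncertain. At 3 months the ratios of Sall1 (-0.30) and Tmem119 (-0.23) were lower in APP without overlap, with 2 WT mice. The other members overlapped at that age. These ratios describe unequal change and carry no test, and a member that did not change would read as lower by the rise of the 18 genes.

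**Figure D3:**
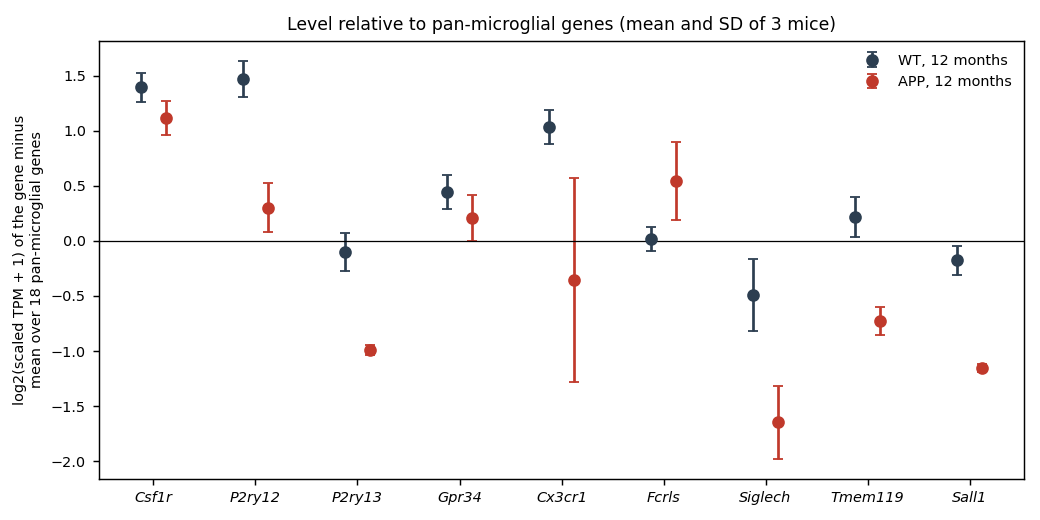
Level of each gene relative to 18 pan-microglial genes (y axis, log2 difference) in WT (dark) and APP (red) at 12 months; points and bars are the mean and SD of 3 mice. P2ry12 goes from 1.47 in WT to 0.30 in APP and Fcrls from 0.02 to 0.54, while Gpr34 and Csf1r overlap.

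The 18 pan-microglial genes themselves had a median log2 difference of 1.14 between APP and WT at 12 months, and 9 of 18 were called higher and none lower. Examples were the cathepsin Ctss (1.66, limma adjusted p = 0.00482), the phosphatase Ptprc, known as CD45 (1.61, adjusted p = 0.00934), and the complement component C1qa (1.72, adjusted p = 0.0206). The count ran from 1 to 4 when any 1 of the 6 libraries of 12 months was left out and from 7 to 12 otherwise. Among 23 tested genes of plaque-associated microglia, 15 were called higher and none lower, with a median of 1.53. The protease inhibitor Cst7 was at 31.4 ± 5.4 scaled TPM in APP and 0.215 ± 0.20 in WT (SD, n = 3 each), and the signalling adaptor Tyrobp at 44.9 ± 12 and 9.63 ± 1.7. Without 1 of the 6 libraries of 12 months this count ran from 5 to 11. The median over the 9 homeostatic members, 0.26, was below both lists.

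The 23 other tested genes of the homeostatic programme had a median log2 difference of 0.29 at 12 months, and none was called lower. Among them Olfml3 was at a log2 difference of 0.83 (limma adjusted p = 0.053) and Selplg, which encodes a ligand of selectins, at 0.68 (adjusted p = 0.0839), neither of them called. From 3 to 12 months within APP, 5 of the 23 were called higher and none lower, and leaving out 1 library gave 1 to 6, with the lowest count without replicate 3 of APP at 12 months.

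Among 24 tested ligands and signalling partners of the members, 3 were called higher at 12 months and none lower, and the median was 0.15. Csf1, a ligand of Csf1r, was at 13.6 ± 2.7 scaled TPM in APP and 6.65 ± 1.1 in WT (SD, n = 3 each, log2 difference 0.93, limma adjusted p = 0.0425), while the other ligand, Il34, which neurons make, was at 16.02 ± 0.74 and 15.9 ± 0.22 (0.01, adjusted p = 0.999). The TGF-beta receptor genes Tgfbr2 (1.39, limma adjusted p = 0.00307) and Tgfbr1 (0.64, adjusted p = 0.0428) were called, their ligand Tgfb1 was not (0.93, adjusted p = 0.131), and neither was Smad3, which carries the signal to the nucleus (-0.03, adjusted p = 0.998). Cx3cl1, the ligand of Cx3cr1, varied from 32.6 to 116 scaled TPM among the APP mice and from 32.1 to 122 among the WT mice (-0.63, adjusted p = 0.925). Without any 1 of the 6 libraries of 12 months 1 call was left in this list. From 3 to 12 months within APP 6 of the 24 were called higher, Csf1, Tgfb1, Tgfb2, Tgfbr1, Tgfbr2 and the phosphatase Ptpn6. Without replicate 3 of APP at 12 months 1 was.

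Of 11 tested transcription factors of microglial identity, 1 was called at 12 months, Irf8, at 7.47 ± 2.5 scaled TPM in APP and 2.29 ± 1.0 in WT (SD, n = 3 each, log2 difference 1.37, limma adjusted p = 0.0282). This call was lost without any 1 APP library of 12 months or replicate 1 or 2 of WT at that age (adjusted p up to 0.182), with a pseudocount of 0.1 and with the replicate block. Spi1, which encodes PU.1, had a log2 difference of 1.00 (limma adjusted p = 0.462). The median over the 11 was 0.03.

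**Figure D4:**
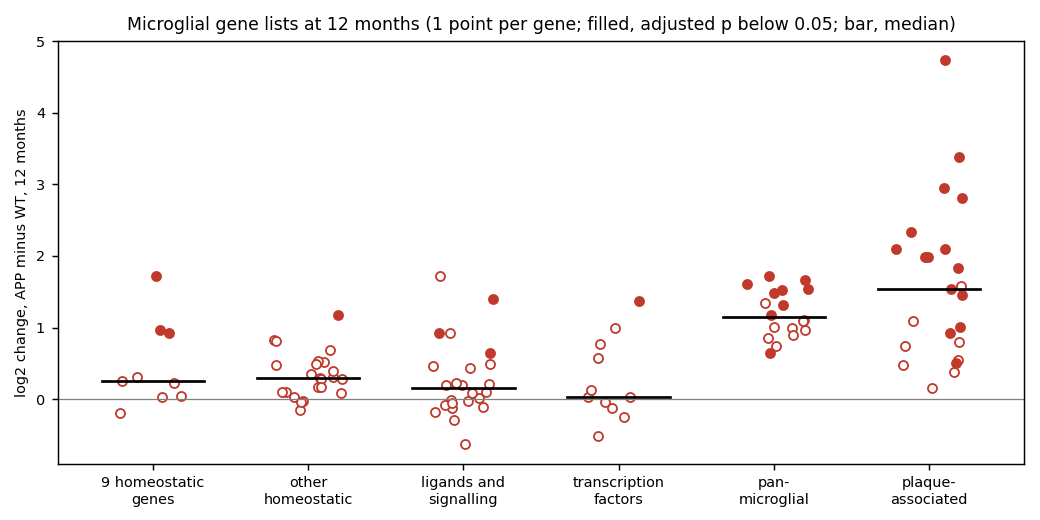
Log2 difference between APP and WT at 12 months (y axis) for the tested genes of 6 lists (x axis); each point is a gene, filled points have an adjusted p below 0.05, bars are medians, and horizontal scatter within a list has no meaning. The medians of the homeostatic lists are 0.26 and 0.29, and those of the pan-microglial and plaque-associated lists 1.14 and 1.53.

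Markers of other cells gave these values at 12 months. Of 10 markers of border-associated macrophages, which also express Csf1r, 8 had a mean below 1 scaled TPM, their sum was 5.14 to 15.01 in APP and 5.90 to 11.7 in WT, and neither tested gene was called (Mrc1 0.21, limma adjusted p = 0.961). The 10 markers of monocytes and lymphocytes summed to at most 0.621 scaled TPM at this age, with Plac8 and Nkg7 at 0 in all 17 libraries. Of 8 astrocyte markers, Gfap was called higher (2.04, limma adjusted p = 0.00687). None of 8 oligodendrocyte, 8 neuronal, 8 hippocampal, 8 vascular, 10 choroid plexus and 5 red blood cell markers was called. The median log2 difference was 0.26 over the vascular markers, as large as that over the 9 members, 0.20 over the oligodendrocyte markers and 0.17 over the hippocampal ones, and their part in the members' values was not tested. Choroid plexus markers summed to 1457 to 1684 scaled TPM in APP and 428 to 1326 in WT at 12 months, and to 38.6 to 926 in APP and 1154 to 1366 in WT at 6 months, and their part in the members' values was not tested. Their median log2 difference at 12 months was 0.95.

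Across the 17 libraries some members varied together more closely than others. Pearson's r of log2 levels was 0.931 between Csf1r and Fcrls, 0.928 between Csf1r and Gpr34 and 0.861 between Gpr34 and P2ry13. Siglech had r between -0.38 and 0.088 with the other 8, and Cx3cr1 at most 0.371. P2ry12 had r of 0.447 with its neighbour P2ry13 and 0.124 with Fcrls. After group means were subtracted the values were different: r was 0.776 between Csf1r and Fcrls and 0.754 between Csf1r and Gpr34, while P2ry12 had r of 0.594 with Csf1r, 0.52 with Fcrls and 0.224 with P2ry13. Among the genes outside the 9 with the highest mean r to them were Lyz2, Ctss, Cd68, B2m, Laptm5, C1qb, Tyrobp, Ggta1 and C1qa, with mean r of 0.601 to 0.62. These libraries share genotype, age and sex groups, so the values describe the set and carry no test.

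Siglech values were the least firm. Its TPM per unit of deposited Coverage varied 2.18-fold between libraries, whereas that of each other member varied by 1.21-fold or less. On Coverage its log2 difference at 6 months was 0.15 and on TPM -0.19. Neither was called, and no direction can be given for the change of its level. Its ratio to the pan-microglial genes was computed on TPM only.

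In GRCm38 coordinates, P2ry12 (chromosome 3, 59216272 to 59262871) and P2ry13 (59207892 to 59210882) lie on the minus strand inside Med12l, a Mediator subunit gene of the plus strand, sharing 9 and 0 exon bases with it. Gpr34 (chromosome X, 13632089 to 13640858, plus strand) lies inside Cask, on the opposite strand, with 0 shared exon bases. The sources used here do not say whether reads were counted by strand. The log2 difference at 12 months was -0.05 for Med12l and -0.15 for Cask, neither called. Fcrls lies at chromosome 3, 87250758 to 87263738, Tmem119 at chromosome 5, 113793729 to 113800516, Sall1 at chromosome 8, 89027235 to 89044162, and Siglech at chromosome 7, 55768178 to 55778925. The Cx3cr1 model (chromosome 9, 119901616 to 120069879, minus strand) spans several genes. Of these Wdr48, Gorasp1, Ttc21a and Csrnp1 share no exon bases with it and were not called at 12 months, and Gm33858, on the opposite strand, shares 78 of its 4505 exon bases and was too low to be tested (0.640 ± 0.43 scaled TPM in APP and 0.229 ± 0.21 in WT at 12 months, SD, n = 3 each).

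Csf1r (chromosome 18, 61105572 to 61132149, plus strand) shares 873 of its 5774 exon bases with Hmgxb3 on the opposite strand. Exon bases are those of GENCODE M21, where the Csf1r model does not have the coordinates given here, while the other 8 members do. Hmgxb3 was at 9.67 ± 0.30 scaled TPM in APP and 9.94 ± 0.71 in WT at 12 months (SD, n = 3 each, log2 difference -0.03, limma adjusted p = 0.997).

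HT-22 cells, a mouse hippocampal neuronal line without microglia, served as a reference for what the gene models read in other cells. They had received a locked nucleic acid oligonucleotide against Hsf1 or a scramble control, followed by amyloid beta peptide or its reversed sequence, in 14 long-RNA libraries. P2ry12, P2ry13, Sall1, Siglech and Fcrls were listed at 0 in all 14, as were Itgam, Ptprc and Tyrobp. In TPM as deposited, Cx3cr1 reached 0.0613 at most, Csf1r 0.0471 to 0.380, and Gpr34 0.256 to 2.26. The hippocampus had 7.52 to 25.1 for Cx3cr1, 14.6 to 39.7 for Csf1r and 6.85 to 21.6 for Gpr34. Tmem119 was different. It was at 6.60 to 66.0 TPM in HT-22 cells, with a median of 11.4, and at 4.70 to 11.7 in the hippocampus. Among HT-22 libraries, 3 with scramble control stood high at 56.3 to 66.0, and the other 11 were at 6.60 to 15.7. HT-22 and mouse values are on the deposited scale and were not tested against each other.

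**Figure D5:**
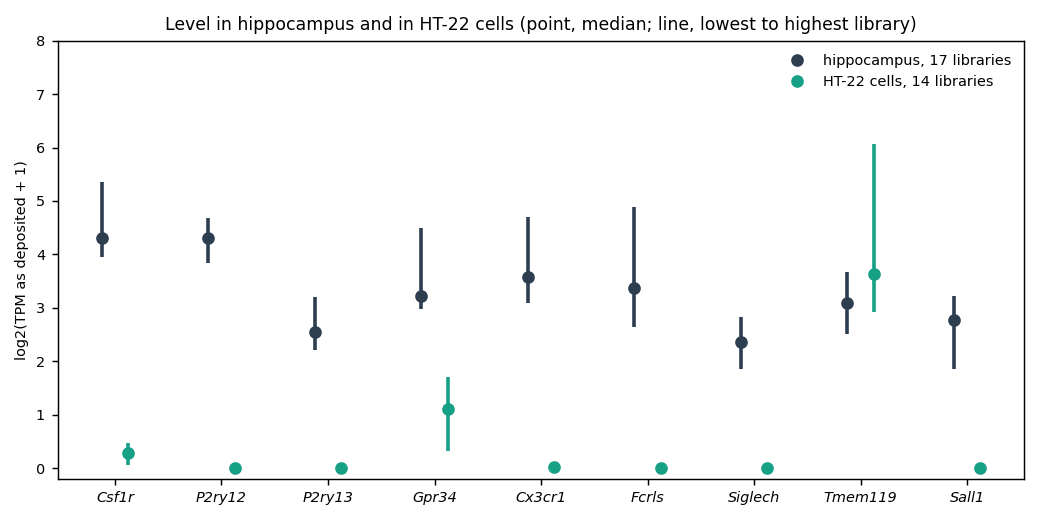
Level of the 9 genes (y axis, log2(TPM as deposited + 1)) in 17 hippocampus libraries (dark) and 14 HT-22 libraries (green); points are medians and lines run from the lowest to the highest library. Of the 9 genes, Tmem119 alone overlaps between them, with medians of 7.51 in hippocampus and 11.4 in HT-22 cells, in TPM.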

How the data were processed

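Long RNA of mouse hippocampus (17 libraries) and HT-22 cells (14) was used. The short-RNA libraries were not used here. Per the file headers, the authors' gene tables give Coverage, FPKM and TPM per gene, 1 table per library. TPM was deposited summing to 999822.8 to 999892.8 in the mouse libraries. FPKM as deposited was used only for relative depth, and the Coverage signal as deposited for that and as an alternative measure. Per the submitters' processing notes, HISAT2 2.1.0 and StringTie 1.3.4d are among the tools, and mm10 and GRCm38 are the builds. Tables hold no read counts, so no count model was run.

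Values of an identifier were summed, and TPM was divided by median-of-ratios factors. Log2(scaled TPM + 1) was fitted with limma 3.58.1 (R 4.3.3, trend and robust moderation) in 1 fit of 6 groups over 17840 genes with mean deposited TPM of at least 1, with Benjamini-Hochberg adjustment over all of them. Each library is 1 mouse, so p-values measure the spread between mice. The members, lists and tests were chosen with earlier results of these data known. Named genes are the 9 members, up to 6 genes of each list with the smallest p at 12 months, and Csf1, Il34, Cx3cl1, Tgfb1, Tgfbr1, Smad3, Spi1 and Irf8, and the 10 other genes with the highest mean correlation to the members. Some genes that this rule covers are not reported here. Tgfb2, which completes a short list of calls, was named after its values were seen, and genes that overlap a member in the annotation are named with it. Of the identifiers, 53934 are in GENCODE M21, and 98.22% of these have the same coordinates there. Alternatives were 8 other settings, each library left out in turn and, chosen after seeing the data, Coverage. The fit was tested on simulated data.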

Additional observations from a re-analysis of the deposited data

How the results depend on the processing

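Settings tried were TPM as deposited, quantile normalisation, a pseudocount of 0.1, no filter, a mean TPM of at least 5, only the groups of the contrast, array weights, the replicate number as a block, each library left out in turn and, chosen after seeing the data, Coverage. Of the log2 changes, 655 of 711 values under other settings kept direction and side of the threshold. That share was in part fixed beforehand. The filters and the fit of only the groups of the contrast leave a log2 change as it was. Most members were also uncalled in most comparisons. The share therefore says little of how firm the calls are, and calls that were lost are given with each gene. Low levels and groups of 2 or 3 mice limit the precision of the small differences. The causes of the changes below were not tested, beyond the shift of all genes in TPM as deposited: 0.60 at 6 months, -0.16 at 3 months, 0.12 at 12 months, 0.18 in the average of ages, -0.28 for APP 12 against 6 months and -0.49 for the interaction.

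In TPM as deposited 6 members were called at 6 months (57.6% of all genes were called higher) and 3 in the average of ages (7.43% were). The average gave 0 without the filter. APP at 12 against 6 months gave 0 members in TPM as deposited, with quantile normalisation, with a pseudocount of 0.1, without the filter and with only the groups of the contrast. In TPM as deposited the log2 difference turned to -0.12 for P2ry13, -0.082 for Cx3cr1, -0.015 for Gpr34 and -0.069 for Csf1r at 3 months, and to 0.13 for P2ry12, 0.38 for P2ry13, 0.39 for Siglech and 0.53 for Gpr34 at 6 months. It turned to 0.086 for Siglech in APP at 6 against 3 months, to -0.089 for P2ry12, -0.10 for Sall1 and -0.12 for Siglech in APP at 12 against 6 months, to 0.11 for Siglech, 0.10 for Gpr34 and 0.14 for Csf1r in WT at 12 against 6 months, and to -0.33 for Tmem119 and -0.23 for Siglech in the interaction. On Coverage, P2ry12 at 12 months was at -0.016, and Siglech at 0.15 at 6 months, -0.055 in APP and 0.060 in WT at 12 against 6 months, and -0.11 in the interaction. None of these was called except Gpr34 at 6 months in TPM as deposited (limma adjusted p = 0.0281). The Sall1 level relative to pan-microglial genes was -1.13 with a pseudocount of 0.1 (-0.97 with 1), and the other 8 moved by less than the SD.

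The replicate numbers did not pair the mice: same-numbered libraries had deviations correlated above 0.1 in 3 of 40 pairs (median -0.007). With the replicate number as a block, 0 members were called in the average of ages and 0 in APP at 12 against 6 months, 2 in place of 3 at 12 months (0.348% of all genes were called higher) and 5 in place of 4 in APP at 12 against 3 months (1.75%). For the fits with 0 members, here and in the other settings, the share of all genes called is not given. Those counts of 0 therefore do not describe the members alone.

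With each library left out in turn, members called ran from 1 to 3 at 12 months, 0 to 1 in the average, 2 to 4 in APP at 12 against 3 months, 0 to 4 at 12 against 6 months and 0 to 3 in the interaction. The share of all genes called also changed between fits, as given above for those without replicate 2 of APP at 6 months. These counts therefore do not describe the members alone. Log2 differences that crossed 0 ran, at 3 months, from -0.41 to 0.16 for P2ry12, -0.041 to 0.11 for P2ry13 and -0.001 to 0.19 for Cx3cr1; at 6 months from -0.42 to 0.013 for Siglech, -0.37 to 0.10 for Gpr34, -0.16 to 0.21 for Csf1r and -0.0012 to 0.50 for Fcrls; and at 12 months from -0.062 to 0.13 for P2ry12, -0.67 to 0.078 for Cx3cr1 and -0.13 to 0.14 for Siglech. In the average they ran from -0.014 to 0.090 for P2ry13, -0.11 to 0.13 for Cx3cr1 and -0.067 to 0.079 for Siglech. In APP at 6 against 3 months they ran from -0.11 to 0.21 for P2ry13, -0.010 to 0.46 for Gpr34, -0.077 to 0.29 for Csf1r and -0.21 to 0.29 for Fcrls. In APP at 12 against 3 months they ran from -0.28 to 0.47 for Cx3cr1 and -0.17 to 0.059 for Siglech, at 12 against 6 months from -0.63 to 0.12 for Cx3cr1 and -0.0063 to 0.27 for Siglech, and in WT from -0.33 to 0.10 for Siglech.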
